A study of Homo sapiens with 6 samples.

Results

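A set of 10 genes of the G1/S switch of the cell cycle was followed in HCT116 cells, a human colorectal carcinoma line: the activator E2F factors E2F1, E2F2 and E2F3, the repressor E2F factors E2F7 and E2F8, the cyclins CCNE1, CCNE2 and CCNA2, the kinase CDK2 and the phosphatase CDC25A. They were taken by gene name, and all 10 were found among the 58735 genes of the expression table. RNA-seq had been performed on 6 libraries from independent biological replicates. The 3 control-transfected libraries (CTR) are labelled WT, and the other 3 came from cells given miR-8485 mimics at 50 nM, short synthetic RNAs that act as the mature miRNA, with collection at 48 h. All 6 libraries came from the same line, and the sequence and dose of the control RNA were not given in the sources used here. Values are FPKM, fragments scaled by gene length and by the total of the library, which allows levels of different genes to be set side by side.

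E2F factors bind a short motif in the promoters of genes needed for DNA synthesis. In resting cells they are held by the retinoblastoma protein and its relatives. Cyclin D kinases and then cyclin E with CDK2 release them, and the released activators raise cyclin E, cyclin A and one another. E2F7 and E2F8 are themselves induced in this wave, bind the same motif without a DP partner and shut the genes down again. Cyclin E with CDK2 starts S phase, cyclin A with CDK2 carries it on, and CDC25A removes the inhibitory phosphates from CDK2. In colorectal tumors this circuit is often overactive.

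The sequence of the mimic is shown because it sets which mRNAs it can pair with. It is printed 5′ to 3′ as the study's methods spell it, with the seed, bases 2 to 8, in capitals.
miR-8485 mimic: cACACACAcacacguau
The seed pairs with TGTGTGT in an mRNA. In the longest annotated 3′ UTR of each gene (GENCODE release 44 on GRCh38), E2F1 held 5 copies of this word, overlaps counted, in 1255 bases, E2F3 held 2 in 3284 bases and E2F7 held 1 in 2891 bases. The other 7 genes held 0, among them E2F8, in a 3′ UTR of 595 bases. A 3′ UTR with at least 1 copy was present in 3 of the 10 genes, against 30.2% of the 10674 tested genes with an annotated 3′ UTR, so the genes did not stand apart in this count. The windows below carry the copies of E2F3 and E2F7 and the densest window of E2F1, where 2 copies overlap. Letters are those of the mRNA strand, and the capitals mark TGTGTGT and its overlapping repeats.
E2F1, chr20:33676451-33676480, minus strand: tgtgtgagcaTGTGTGTGTgcatgtaccgg
E2F3, chr6:20490995-20491024, plus strand: aagctatgaacTGTGTGTcccagtaggagg
E2F3, chr6:20492634-20492663, plus strand: ggctagattgtTGTGTGTtttgttgaattt
E2F7, chr12:77021635-77021664, minus strand: gtcacagaggcTGTGTGTgccctacactga
Each window lies within a single exon and equaled the hg38 genome at these positions. Which 3′ UTRs the cells used was not measured.

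**Figure D1:**
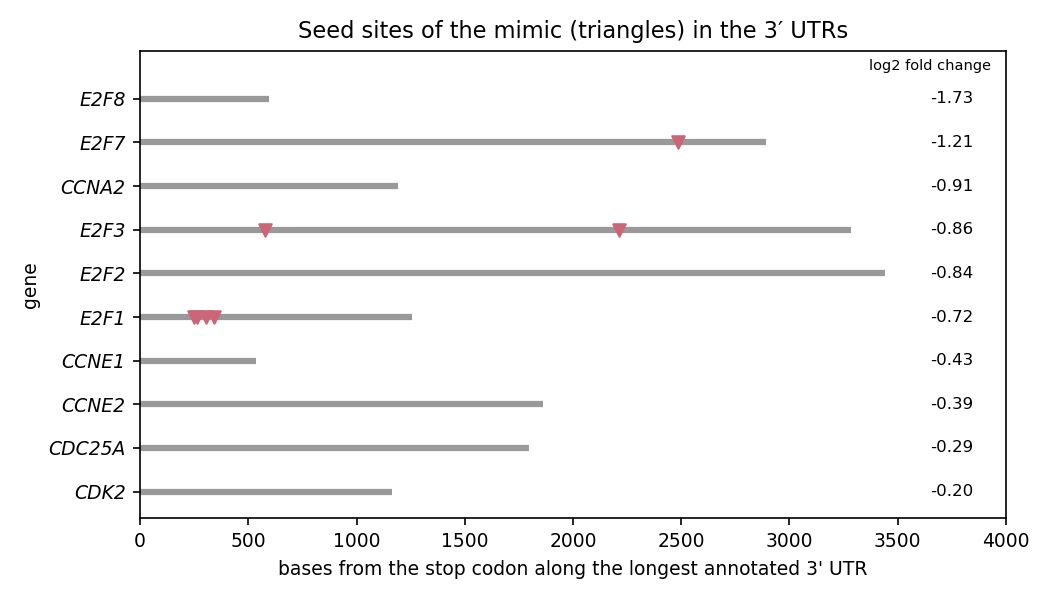
Longest annotated 3′ UTR of each gene (gray bars, x axis in bases from the stop codon), with the start of each run of TGTGTGT as a triangle and the log2 fold change of the gene at the right. E2F1, E2F3 and E2F7 carry runs, and E2F8, with the lowest log2 fold change of -1.73, carries none.

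The E2F motif itself occurs in several of these promoters, and it is shown because the E2F genes are targets of their own products. RefSeq promoter sequences of GRCh38.p14, 250 bases before to 50 after the start, were matched for 7 of the 10 genes. Those of E2F8, CCNE2 and CDK2 were not matched. The words TTTCCCGC, TTTCGCGC, TTTGCCGC and TTTGGCGC were searched on both strands. E2F1, E2F2, E2F3 and CDC25A held at least 1 of them, 4 of 7 genes, while 5.10% of 12622 promoters of tested genes and 3.30% of all 34943 promoters did. The percentages here and below are of promoters, whereas the 7 genes, with 8 promoters, were counted as genes. A promoter without these E2F words may still hold another form of the motif, which was not searched. E2F1 held 2 matches, at -33 to -26 and at -20 to -13 from the start, which is base 0. The match of E2F2 lay at -42 to -35, that of CDC25A at -44 to -37, and that of E2F3 at -53 to -46 in the upstream of its 2 promoters, while the downstream one held 0 matches. The word TTTGAA, a form of the cell cycle homology region, was present in 9.90% of the promoters of tested genes. Among the 7 genes it was found only in the upstream E2F3 promoter, at -65 to -60. Other forms of the region were not searched, so a gene without this word may still hold the region. CCAAT on either strand was found in 5 of the 7 genes, including E2F7 with 4 and CCNA2 with 1, against 34.8% of the promoters of tested genes. No match overlapped another. A match is a word in the sequence, and binding was not measured. The 180 bases from -130 to 49 are printed on the strand of the gene, with the E2F words and, in E2F3, TTTGAA in capitals.
E2F1, chr20:33686336-33686515, minus strand: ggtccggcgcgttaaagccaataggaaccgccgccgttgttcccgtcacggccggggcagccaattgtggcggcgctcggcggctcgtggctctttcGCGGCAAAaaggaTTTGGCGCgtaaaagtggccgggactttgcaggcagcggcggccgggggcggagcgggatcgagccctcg
E2F2, chr1:23531184-23531363, minus strand: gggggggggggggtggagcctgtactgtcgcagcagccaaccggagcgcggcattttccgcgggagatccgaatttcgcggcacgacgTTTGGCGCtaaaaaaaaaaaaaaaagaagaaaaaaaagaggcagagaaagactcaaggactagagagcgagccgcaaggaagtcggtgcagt
E2F3, chr6:20401749-20401928, plus strand: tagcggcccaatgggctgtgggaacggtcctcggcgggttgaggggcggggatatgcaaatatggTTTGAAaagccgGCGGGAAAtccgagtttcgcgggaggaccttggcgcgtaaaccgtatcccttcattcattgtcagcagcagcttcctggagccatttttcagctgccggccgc
CDC25A, chr3:48188368-48188547, minus strand: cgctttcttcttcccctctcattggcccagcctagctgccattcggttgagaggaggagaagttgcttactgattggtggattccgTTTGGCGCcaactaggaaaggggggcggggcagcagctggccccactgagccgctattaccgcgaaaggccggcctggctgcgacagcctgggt

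The 6 libraries held 17473874 to 18480047 fragments on listed genes, recovered from the FPKM values, and the fewest fragments behind any value of the 10 genes were 80, for E2F8 in a miR-8485 library. Fragment counts of library pairs gave a chi-square, divided by the number of genes, of 2.68 to 9.60 within groups and 54.4 to 62.4 between groups. CTR replicate 1 stood apart within its group, at 9.60 with CTR replicate 2 and 7.74 with CTR replicate 3. The other pairs within groups were at 2.68 to 3.67, and no library was left out. MIR8485, the gene of the miRNA, was listed at 0 in every library, so the table does not measure the mimic. Of 7 epithelial markers, 5 reached a mean FPKM of at least 1, with a summed level of 2598 to 2822 FPKM in CTR and 1724 to 1808 FPKM in miR-8485. The colon markers CDH17 and VIL1 were below this level. Of 8 markers of blood, endothelial and fibroblast cells, COL1A1 alone reached it, and the fibroblast markers summed to 4.05 to 4.39 FPKM in CTR and 6.27 to 6.40 FPKM in miR-8485. CD3E and DCN were at 0 in every library. The part of these levels in the results was not tested. Since each library pools the RNA of many cells, fewer cells in S phase and less RNA of these genes per cell cannot be told apart. The values are relative to the total of a library, so a change in the total RNA of a cell is not seen in them.

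All 10 genes were downregulated in the miR-8485 libraries. For each of them every miR-8485 library lay below every CTR library, and limma on log2(FPKM + 0.1) with Benjamini-Hochberg adjustment over 12349 genes gave an adjusted p under 0.05. The background of this experiment is wide. Of all tested genes, 30.5% were called lower, 29.1% were called higher, and 34.0% had every miR-8485 library below every CTR library. The log2 fold change of miR-8485 over CTR (log2FC) had a median of -0.78 over the 10 genes and -0.0041 over all tested genes. Single genes ranged from a log2FC of -1.73 for E2F8 to -0.20 for CDK2. Fold changes on this scale slightly understate those of low genes such as E2F8.

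**Figure D2:**
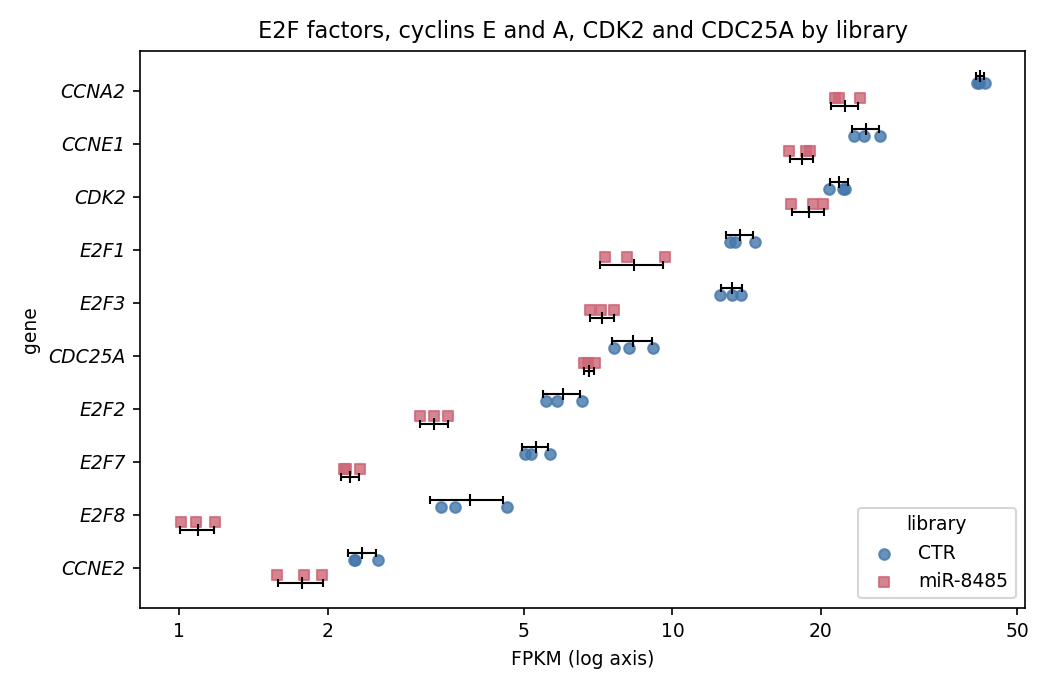
FPKM of each gene (x axis, logarithmic) in the 3 CTR libraries (circles) and the 3 miR-8485 libraries (squares), with the mean and SD of each group in black. The groups do not overlap for any of the 10 genes, and the gap is widest for E2F8 and narrowest for CDK2.

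The repressors E2F7 and E2F8 fell most. E2F8, on chromosome 11 from 19224063 to 19241620 in the hg38 coordinates of the table, had 3.40, 4.63 and 3.62 FPKM in CTR replicates 1 to 3 and 1.18, 1.08 and 1.01 FPKM in miR-8485 replicates 1 to 3. The highest miR-8485 library was far below the lowest CTR library, and CTR replicate 2 stood above the others. The log2FC was -1.73 ± 0.14 (SE, limma adjusted p = 4.3e-05), with 0.996% of all tested genes lower. E2F7, on chromosome 12 from 77021247 to 77065580, had 5.02, 5.16 and 5.65 FPKM in CTR and 2.32, 2.16 and 2.18 FPKM in miR-8485. Both groups were tight, and the miR-8485 mean was 42.1% of the CTR mean. Its log2FC was -1.21 ± 0.08 (SE, limma adjusted p = 1.5e-05), with 3.02% of the tested genes lower. E2F8 carries no copy of the seed word in its 3′ UTR and E2F7 carries 1.

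The activators E2F1, E2F2 and E2F3 fell by similar amounts. E2F1, on chromosome 20 from 33675683 to 33686404, can drive both S phase entry and apoptosis. It had 13.4, 14.7 and 13.1 FPKM in CTR and 9.68, 7.29 and 8.10 FPKM in miR-8485. Its miR-8485 libraries varied most among the activators, with an SD of 1.21 FPKM (n = 3), and all lay below the CTR libraries. The log2FC of E2F1 was -0.72 ± 0.10 (SE, limma adjusted p = 7.6e-04). E2F2, on chromosome 1 from 23506430 to 23531220, had 5.84, 5.55 and 6.56 FPKM in CTR and 3.50, 3.28 and 3.08 FPKM in miR-8485, a log2FC of -0.84 ± 0.08 (SE, limma adjusted p = 1.2e-04). The lower of the activators in level was thus E2F2, in every library. E2F3, on chromosome 6 from 20401906 to 20493715, is amplified in some carcinomas. It had 12.5, 13.2 and 13.8 FPKM in CTR and 7.63, 7.17 and 6.81 FPKM in miR-8485. Its log2FC was -0.86 ± 0.06 (SE, limma adjusted p = 2.9e-05). The 95% intervals of the activators overlapped, from -0.96 to -0.47 for E2F1, -1.04 to -0.65 for E2F2 and -1.01 to -0.72 for E2F3.

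Cyclin A2 fell more than the E cyclins in its point estimate. CCNA2, on chromosome 4 from 121816444 to 121823933, was the highest of the 10 genes in both groups. It had 43.0, 41.4 and 41.9 FPKM in CTR and 21.4, 24 and 21.8 FPKM in miR-8485. The replicates of each group lay close together relative to the gap, and the log2FC was -0.91 ± 0.05 (SE, limma adjusted p = 1.2e-05). CCNE1, on chromosome 19 from 29811898 to 29824308, is the main cyclin E of these cells by level. It had 26.3, 23.3 and 24.5 FPKM in CTR and 17.2, 19.0 and 18.7 FPKM in miR-8485, a log2FC of -0.43 ± 0.06 (SE, limma adjusted p = 8.0e-04). CCNE2, on chromosome 8 from 94879770 to 94896678, had 2.27, 2.26 and 2.53 FPKM in CTR and 1.58, 1.79 and 1.95 FPKM in miR-8485. Its groups were separated by a small gap, and the log2FC was -0.39 ± 0.11 (SE, limma adjusted p = 0.0186). The CCNE2 call was lost without CTR replicate 3 (-0.34, adjusted p = 0.0646) and without miR-8485 replicate 1 (-0.32, adjusted p = 0.0563).

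CDK2 and CDC25A fell least. CDC25A, on chromosome 3 from 48157146 to 48188402, had 8.18, 7.61 and 9.15 FPKM in CTR and 6.75, 6.96 and 6.63 FPKM in miR-8485. The miR-8485 libraries were tight and sat just under the lowest CTR library. Its log2FC was -0.29 ± 0.07 (SE, limma adjusted p = 0.0118). CDK2, on chromosome 12 from 55966769 to 55972784, had 20.8, 22.4 and 22.2 FPKM in CTR and 17.4, 19.3 and 20.2 FPKM in miR-8485. The third miR-8485 library came close to the first CTR library, and 33.0% of all tested genes had a lower log2FC than the -0.20 of CDK2 ± 0.07 (SE, limma adjusted p = 0.0295). The CDK2 call was lost without CTR replicate 2 (-0.18, adjusted p = 0.0854), CTR replicate 3 (-0.19, adjusted p = 0.0835), miR-8485 replicate 1 (-0.14, adjusted p = 0.0765) or miR-8485 replicate 2 (-0.22, adjusted p = 0.0562), in the fit of all genes above 0 (adjusted p = 0.0712) and in the fit with no variance trend (adjusted p = 0.0533).

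**Figure D3:**
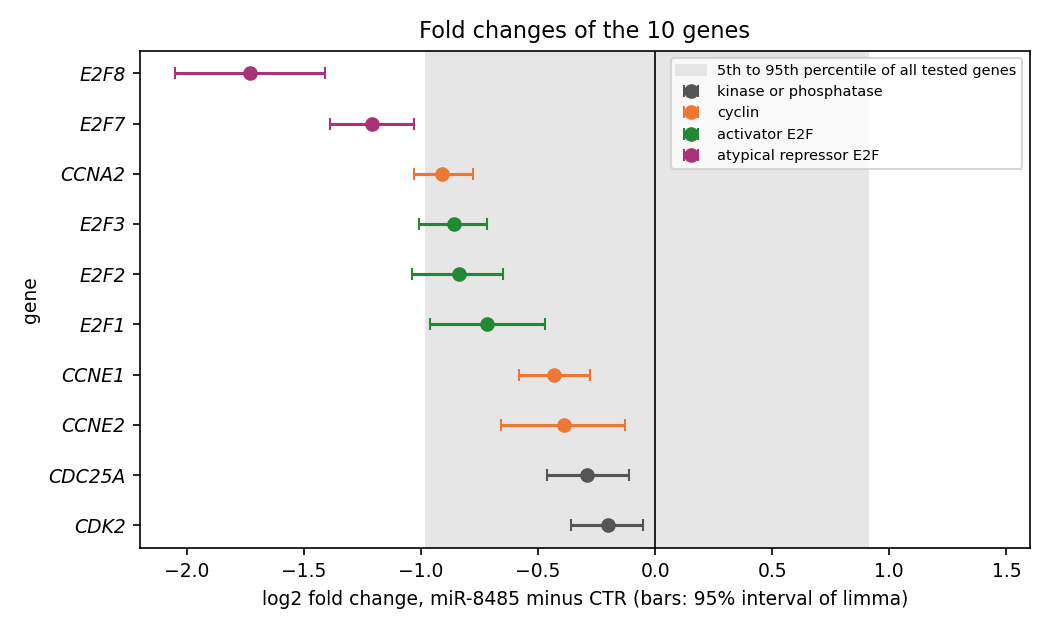
Log2 fold change of each gene, miR-8485 minus CTR (points), with 95% intervals of limma (bars), colored by role, over the range between the 5th and 95th percentiles of all tested genes (gray, -0.98 to 0.91). E2F8 and E2F7 lie outside the gray range, and CDK2, at -0.20, lies nearest to 0.

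Some of these genes share genomic sequence with other genes, and whether the counting used strand was not given in the sources used here. CDK2 lies wholly inside PMEL on the opposite strand, by 6016 bases, and PMEL was at 1.52 to 2.01 FPKM. CCNA2 overlaps EXOSC9 by 578 bases, with EXOSC9 at 11 to 17.9 FPKM, and CCNE2 overlaps INTS8 by 1977 bases, with INTS8 at 8.70 to 10.7 FPKM. CCNE2 also overlaps NDUFAF6 by 912 bases, at 1.90 to 2.57 FPKM, and a pseudogene. An antisense RNA gene, at 0.480 to 2.99 FPKM, overlaps CCNE2 by 462 bases. E2F1, E2F2, E2F7 and CCNE1 overlap no listed gene. E2F8 overlaps an antisense RNA gene, at 0 to 0.643 FPKM, along its whole length, and E2F3 and CDC25A hold small RNA genes or pseudogenes. E2F3 also holds E2F3-IT1, an intronic RNA gene on the same strand, over 2358 bases, at 0 to 0.557 FPKM.

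The order of the levels was nearly kept. In CTR the means ran CCNA2, CCNE1, CDK2, E2F1, E2F3, CDC25A, E2F2, E2F7, E2F8 and CCNE2, from 42.1 down to 2.35 FPKM. Neighbors whose CTR libraries overlapped were E2F1 with E2F3 and E2F2 with E2F7. In miR-8485 the means ran from 22.4 FPKM for CCNA2 to 1.09 FPKM for E2F8, with CDK2 at 18.9 and CCNE1 at 18.3 FPKM in exchanged places and CCNE2, at 1.77 FPKM, above E2F8. The ranges of CDK2 and CCNE1 overlapped in miR-8485, as did those of E2F1 with E2F3 and of E2F3 with CDC25A. CCNE2 lay above E2F8 in every miR-8485 library and below it in every CTR library.

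To compare related genes apart from library scaling, the log2 ratio of 5 pairs was taken within each library. Exact permutation tests of 3 against 3 libraries, two-sided, cannot go below p = 0.1, and p was adjusted over the 5 pairs. The ratio of CCNA2 to CDK2 was 2.07, 1.85 and 1.89 in CTR and 1.23, 1.24 and 1.08 in miR-8485. The groups did not overlap, and the log2 ratio differed by -0.71 (exact permutation p = 0.1, adjusted 0.250). E2F7 to E2F8 was 1.48, 1.11 and 1.56 in CTR and 1.96, 1.99 and 2.15 in miR-8485, again with no overlap, and its log2 ratio was higher by 0.52 (exact permutation p = 0.1, adjusted 0.250). That difference was 0.25 with a pseudocount of 1 and ranged from 0.37, without CTR replicate 2, to 0.61 with single libraries left out. These ratios, of CCNA2 to CDK2 and of E2F7 to E2F8, both reached the smallest p that the design allows, and neither passed the adjustment. CCNE1 to CCNE2 was 11.6, 10.3 and 9.71 in CTR and 10.9, 10.7 and 9.58 in miR-8485, with overlapping groups. Its log2 ratio differed by -0.04 (exact permutation p = 0.800), a value that was 0.03 without CTR replicate 1 and 0.02 without miR-8485 replicate 3. With a pseudocount of 1 the CCNE1 to CCNE2 difference was -0.14 (exact permutation p = 0.1, not adjusted), so this ratio depended on the pseudocount. For the activators, E2F1 to E2F2 differed by 0.13 (exact permutation p = 0.600) and E2F1 to E2F3 by 0.14 (exact permutation p = 0.300) in the log2 ratio, both with overlapping groups. Leaving out single libraries moved the former between 0.03 (without CTR replicate 3) and 0.23 (without CTR replicate 2), and the latter between 0.08 (without CTR replicate 3 or miR-8485 replicate 1) and 0.23 (without miR-8485 replicate 2). The former was also 0.06 without miR-8485 replicate 1 and 0.22 without miR-8485 replicate 2, and 0.04 with a pseudocount of 1. With 3 libraries per group these p-values do not show that the ratios were the same.

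**Figure D4:**
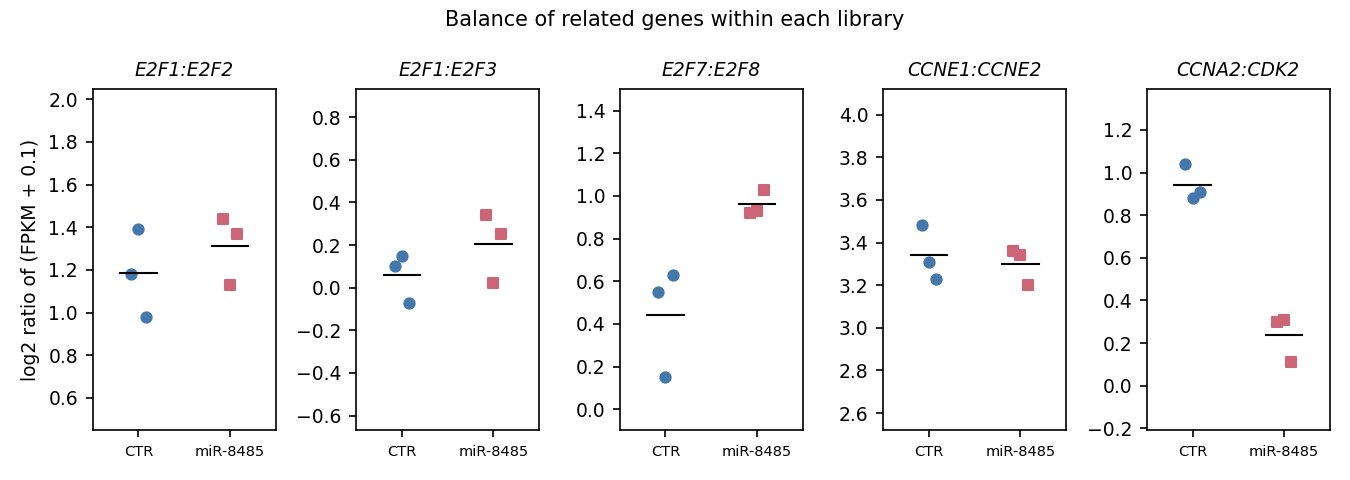
Log2 ratio of (FPKM + 0.1) of 5 pairs of genes in each CTR library (circles) and miR-8485 library (squares), with the group means as lines and each panel spanning the same height. The groups separate for E2F7:E2F8 and CCNA2:CDK2 and overlap in the other panels.

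The remaining E2F and DP factors did not move as a block. Of 5 genes, E2F4 and E2F6 were downregulated, TFDP2 was upregulated, and E2F5 and TFDP1 did not pass the threshold, with a median log2FC of 0.04. Over all tested genes, 30.5% were called lower and 29.1% higher. E2F6, a repressor that acts with Polycomb proteins and without pocket proteins, fell from 9.65 ± 0.344 to 4.6 ± 0.257 FPKM (SD, n = 3), a log2FC of -1.06 (limma adjusted p = 1.2e-05). E2F4, the main E2F of resting cells, fell from 35.2 ± 0.788 to 29.0 ± 2.03 FPKM (SD, n = 3), a log2FC of -0.28 (limma adjusted p = 0.00397). TFDP2, a DP partner of the typical E2F factors, rose from 4.54 ± 0.301 to 8.16 ± 0.433 FPKM (SD, n = 3), a log2FC of 0.83 (limma adjusted p = 5.7e-05). The more abundant partner TFDP1 was at 56.2 ± 3.43 FPKM in CTR and 57.9 ± 1.20 FPKM in miR-8485 (SD, n = 3), with a log2FC of 0.04 (limma adjusted p = 0.501) that became -0.07 after rescaling to TPM. E2F5 had a log2FC of 0.12 (limma adjusted p = 0.175).

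A list of 9 genes took the pocket proteins that hold E2F factors, the MuvB subunits of the DREAM repressor complex, and MYBL2. Of these, 8 were tested, 5 fell, MYBL2 among them, and 2 rose, with a median log2FC of -0.46. The shares over all tested genes were 30.5% called lower and 29.1% called higher. RB1 fell from 8.40 ± 0.563 to 5.90 ± 0.446 FPKM (SD, n = 3), a log2FC of -0.50 (limma adjusted p = 0.00101). RBL2, the pocket protein of quiescent cells, rose from 2.33 ± 0.262 to 4.31 ± 0.343 FPKM (SD, n = 3), a log2FC of 0.86 (limma adjusted p = 3.0e-04). RBL1, itself an E2F target, had a log2FC of -0.23 (limma adjusted p = 0.229). The MuvB subunits LIN52, LIN54 and LIN9 fell by 1.25, 0.83 and 0.41 on the log2 scale, and RBBP4, a histone binding protein of many complexes, rose by 0.49. LIN37 was below the filter, at 0.471 FPKM in CTR and 0.667 FPKM in miR-8485. MYBL2, which takes over MuvB in S phase, fell from 49.4 ± 2.90 to 23.6 ± 1.09 FPKM (SD, n = 3), a log2FC of -1.06 (limma adjusted p = 9.8e-06).

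A further list took 12 genes around cyclin E, cyclin A and the control of CDKs, not of CDK2 alone. Of these, 11 were tested, 6 fell and 1 rose, with a median log2FC of -0.30. Beside these counts, 30.5% of all tested genes were called lower and 29.1% higher. The other CDC25 phosphatases, CDC25B and CDC25C, fell by 0.55 and 0.67, and the inhibitory kinases PKMYT1 and WEE1 by 0.66 and 0.30 on the log2 scale. Omitting miR-8485 replicate 3 ended the call of WEE1, to -0.26 (limma adjusted p = 0.0575). CKS2, a small CDK subunit, fell from 173 to 111 FPKM. Its relative CKS1B had a log2FC of -0.18 (limma adjusted p = 0.0528). CDK7, the catalytic subunit of the CDK activating kinase, fell by 0.39 (limma adjusted p = 1.6e-04), while its partners CCNH and MNAT1 did not pass the threshold, at -0.14 and -0.07. MNAT1 did so after rescaling to TPM (-0.18, adjusted p = 0.0376). SKP2, the ubiquitin ligase subunit that removes CDK inhibitors, rose from 9.76 ± 0.524 to 11.3 ± 0.718 FPKM (SD, n = 3), a log2FC of 0.21 (limma adjusted p = 0.0262), a call that was lost after rescaling to TPM (0.10, adjusted p = 0.294), in the fit of all genes above 0 (adjusted p = 0.0618), and without CTR replicate 1 (adjusted p = 0.0667), CTR replicate 3 (0.0766), miR-8485 replicate 2 (0.0805) or miR-8485 replicate 3 (0.0895). FBXW7, which marks cyclin E for degradation, was at 1.89 FPKM in CTR and 1.86 FPKM in miR-8485. CCNA1, the germ cell cyclin A, was listed at 0 in every library.

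Genes known to be driven by E2F factors were counted next, among them RBL1 and MYBL2, which are also in the list of pocket proteins and MuvB. Of 44 such genes, 43 were tested, 34 fell and 1 rose in limma, with a median log2FC of -0.53 against -0.0041 over all tested genes. Calls over all tested genes were 30.5% lower and 29.1% higher. RRM2, a subunit of ribonucleotide reductase, fell most, from 54.2 ± 1.74 to 22.1 ± 0.928 FPKM (SD, n = 3), a log2FC of -1.29 (limma adjusted p = 2.4e-06). BUB1, a kinase of the spindle checkpoint, and CLSPN, the checkpoint adaptor claspin, each fell by 1.24. MCM7, a subunit of the replicative helicase, was the 1 gene called higher, with a log2FC of 0.15 (limma adjusted p = 0.0186) that was lost after rescaling to TPM (0.04, adjusted p = 0.461) and without miR-8485 replicate 1 (0.14, adjusted p = 0.0612). The other 8 tested genes passed the threshold in neither direction, with log2FC values from -0.29 to -0.05. The number called lower was 39 after rescaling to TPM and 37 with voom on recovered fragments.

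Genes of G2 and mitosis, which follow the E2F wave, were called lower in 13 of 13 cases, against 30.5% of all tested genes. Their median log2FC was -0.86, beside -0.78 for the 10 genes. AURKA, UBE2C and AURKB fell most, by 1.13, 1.05 and 1.03 on the log2 scale. The difference between these lists was not tested.

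**Figure D5:**
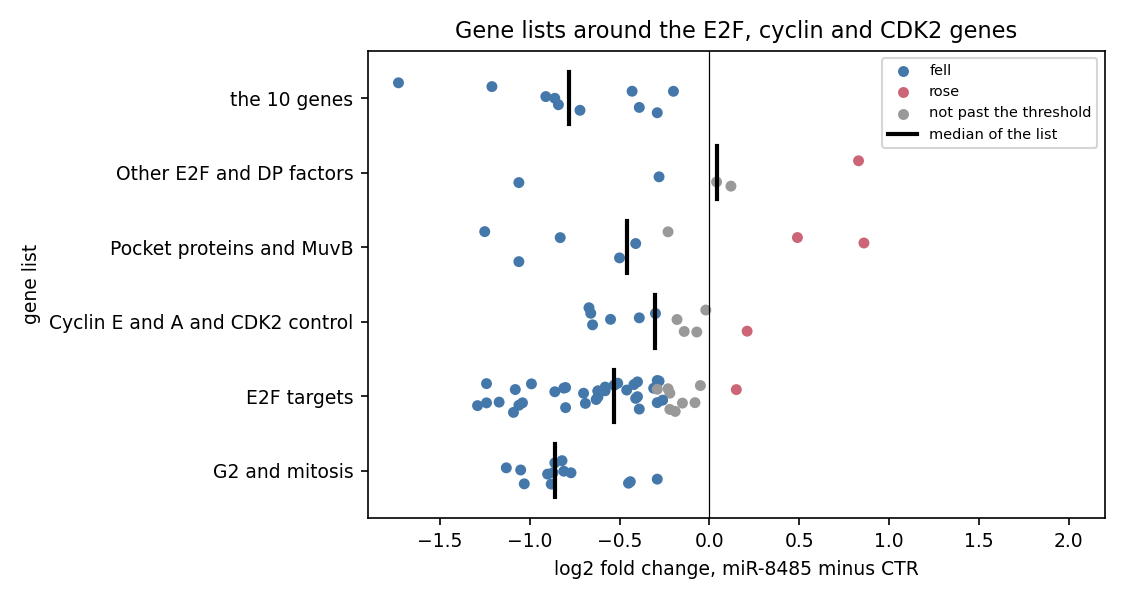
Log2 fold change of each tested gene (points) in the 10 genes and 5 lists around them, miR-8485 minus CTR, colored by call, with the median of each list as a black bar. The medians are -0.78 for the 10 genes, 0.04, -0.46 and -0.30 for the first 3 lists, -0.53 for the E2F targets and -0.86 for G2 and mitosis.

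The mean profile of the 10 genes over the 6 libraries was compared with all other protein-coding genes tested. Centered on the log2 scale, it was 0.34, 0.38 and 0.42 in CTR and -0.37, -0.38 and -0.39 in miR-8485. The most similar genes by Pearson r over 6 libraries were NTSR1, DERL1, UBTD1, HMGA1 and DCBLD1, with r from 0.9994 to 0.9996. NTSR1, the neurotensin receptor, fell from 73.3 to 26.5 FPKM, and HMGA1, a chromatin architecture protein, from 1105 to 376 FPKM. Such an r rests on the difference between the groups, which the libraries share, and 2943 of 10711 genes (27.5%) had an r above 0.9.

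The directions of the 10 genes did not depend on scaling. Rescaling to TPM moved the median log2FC of all tested genes from -0.0041 to -0.12, and the share of called genes that were higher from 48.8% to 35.6%. The median of the 10 genes moved with it from -0.78 to -0.90, and its distance from the median of all genes from -0.78 to -0.79.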

How the data were processed

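RNA-seq libraries had been made from HCT116 cells, 3 transfected with a control and 3 with miR-8485 mimics, and the samples were grouped by their titles. Per the labels and the methods of the study, the authors mapped trimmed reads to hg38 with HISAT2 2.0.5 and counted them per gene with featureCounts 1.5.0-p3. The values deposited by the authors are FPKM, and no further scaling is stated. Every value above 0 equaled a whole number of fragments within 0.01, which gave depth and fragment counts; 0 columns were left without a sample. Genes whose FPKM averaged 1 or more over the 6 libraries were fitted with limma 3.58.1 in R 4.3.3 (variance trend, two-sided) on log2(FPKM + 0.1), adjusted by Benjamini-Hochberg and called at 0.05. All 10 genes passed the filter.

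The 10 genes and the gene lists were chosen with earlier results of these data known, and the E2F target list comes from general knowledge. Genes were named by rule: all 10 genes, each tested gene of lists of up to 12 genes, the 3 largest called falls and rises of longer lists, and the 5 genes most similar in profile. Alternatives were pseudocounts of 1 and 0.01, no filter, a filter at a mean of 5, TPM, median-of-ratios scaling, no variance trend, voom on recovered fragments, a replicate block and each library left out. Ratios used exact permutation tests in scipy 1.17.1. Sequences came from RefSeq tables of GRCh38.p14, GENCODE release 44 and the study's methods; the genome and the files share the hg38 build. Values of some listed genes are not reported here.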

Additional observations from a re-analysis of the deposited data

How the results depend on the processing

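All 10 genes kept their direction under every alternative run. With a mean FPKM of at least 5, 6 of the 10 genes were left to test and all 6 were called lower. With each library left out, 8 to 10 genes were called lower, 34 to 36 E2F targets were called lower and 0 to 1 higher; TPM gave 39 lower and 0 higher, and voom 37 lower. CDK2 lost its call with no filter (log2 fold change -0.20) and with no variance trend (-0.20), and leaving out single libraries gave -0.25 to -0.14 for it and -0.46 to -0.32 for CCNE2. The cause of these losses was not tested. The difference in the log2 ratio of CCNE1 to CCNE2 ranged from -0.09 to 0.03 over these omissions and was -0.14 with a pseudocount of 1. FBXW7 ranged from -0.07 to 0.02, the latter without CTR replicate 2 and without miR-8485 replicate 1, and TFDP1 was at -0.07 after rescaling to TPM and at -0.0034 to 0.08 with single libraries omitted, the lowest without CTR replicate 1. CKS1B was past the threshold in 6 alternatives.

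The labels give both groups the replicate numbers 1 to 3. Deviations of same-numbered libraries from their group means correlated at 0.0668, 0.0335 and -0.0640, and CTR replicate 2 correlated best with miR-8485 replicate 3 (0.0608), so the numbers were not taken as pairs. With the replicate number as a block, 10 genes were called lower, CDK2 had -0.20 (adjusted p = 0.0126), and 3634 genes were called higher and 3754 lower over all tested genes. With 3 libraries per group, the fall of CDK2, at -0.20, is near the limit of what passes the threshold. Size alone did not set that limit. MCM7 was called at 0.15 (SE 0.04, limma adjusted p = 0.0186), and MCM2 was not called at -0.22 (SE 0.08, limma adjusted p = 0.0566).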
